A study of Mus musculus with 24 samples.

Results

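Homologous recombination, the Fanconi anaemia pathway and mismatch repair are the DNA repair routes that act mainly on DNA being copied or just copied. The 38 genes described here encode their main components, and they were taken by symbol from a count table of 43280 gene symbols. They comprise 5 genes of the BRCA and PALB2 complexes, 9 of strand exchange, 6 of end resection with the BLM helicase, 8 of the Fanconi core complex, 2 of the Fanconi ID complex, 4 of mismatch repair and 4 kinases of the DNA damage checkpoints. The count table came from epithelial cells of the mouse small-intestinal crypt. The mice were 6 C57BL/6 males that carry the Lgr5-EGFP reporter, in which green fluorescence marks cells that express the stem cell gene Lgr5. The 3 NRG1 mice were injected intraperitoneally with 7.5 µg of neuregulin 1, a ligand of the ErbB receptor kinases, every 12 h for 5 days, and the 3 PBS mice with vehicle on the same schedule. Tissue was taken on day 6, from mice that were 15 weeks old (replicates 1 and 2 of each treatment) or 11 weeks old (replicate 3 of each). The labels call the mice littermates without saying which shared a litter. From every mouse 4 populations were sorted by EGFP and the surface protein CD24, after exclusion of dead cells and of CD31+ and CD45+ cells. They were named Lgr5high (crypt base columnar stem cells), Lgr5med (their immediate progenitors), Lgr5low (later progenitors) and Lgr5neg (differentiated cells). This gave 24 libraries in 8 groups of 3.

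Homologous recombination mends a double-strand break by copying the sister chromatid, so it works in S and G2 phases. The break is first cut back to single strands by MRE11, RAD50, NBN, CtIP (the product of Rbbp8) and EXO1, and the strands are then made ready for exchange by BRCA2 with PALB2 and BRCA1. Fanconi proteins detect crosslinked DNA strands that block a replication fork, and the core complex attaches ubiquitin to FANCD2 and FANCI. Mismatch repair corrects copying errors, with MSH6 and MSH3 in the complexes that recognise mispaired bases and PMS2 in the one that nicks the new strand. The crypt is among the fastest renewing tissues of the body: stem and progenitor cells divide in it, and their progeny stop dividing as they differentiate.

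Total counts per library lay between 11176264 and 23343499, of which mitochondrial ribosomal RNA took 37.6% to 62.4%. All 38 members were found in the table and in the GENCODE annotation. Levels are given as CPM, read counts scaled to a common library total after TMM scaling over all 24 libraries, and 3 counts were worth 0.113 to 0.239 CPM. Lgr5high and Lgr5neg libraries carried the markers of their names. The summed level of 8 stem cell markers lay at 2635 to 3050 CPM in NRG1 and 2351 to 3454 CPM in PBS Lgr5high libraries. In Lgr5neg libraries it lay at 49.0 to 57.5 CPM with NRG1 and 47.9 to 59.2 CPM with PBS. The progenitor libraries also held RNA of 8 secretory markers. These summed to 2973 to 6892 CPM in NRG1 and 3175 to 8670 CPM in PBS Lgr5med libraries. In Lgr5low libraries they summed to 8172 to 15960 CPM with NRG1 and 8172 to 15410 CPM with PBS. Enterocyte markers (8 genes) summed to 23420 to 31390 CPM in NRG1 and 28010 to 40070 CPM in PBS Lgr5neg libraries. Immune markers (10 genes) summed to 46.4 to 373 CPM in NRG1 and 75.4 to 159 CPM in PBS Lgr5neg libraries and to at most 5.88 CPM in any other library, although CD45+ cells had been gated out. In these bulk libraries, fewer cells of a type and less RNA per cell cannot be told apart. Reads of 20 members could be shared with a gene whose annotated exons overlap theirs, such as Msh6 with Fbxo11 on the other strand or Rad54b with Fsbp on the same strand, because the strand setting of the counting is not known here.

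The upstream sequences of 4 members are shown because these genes passed the test for a change with NRG1 in Lgr5high or Lgr5med cells and have a promoter entry. Sequences are cut from RefSeq promoter windows of GRCm38.p6, which span 250 bases before to 50 bases after each annotated start and were searched whole, and 30 of the 38 members have an entry. Capitals mark 2 kinds of letters searched on both strands: E2F-type sites (TTTCCCGC, TTTCGCGC, TTTGCCGC or TTTGGCGC) and the CCAAT box (CCAAT, or ATTGG on the other strand). The Msh6 stretch, the 250 bases before the start, lies at chr17:87974800-87975049 on the plus strand, and its E2F-type site sits just after the start, within chr17:87975057-87975080. The Rad51c stretch, at chr11:87404952-87405064 on the minus strand, was cut to stay clear of exons of Tex14 and ends in an E2F-type site that crosses the start. The Rad52 stretch is the 250 bases at chr6:119902448-119902697 on the plus strand, where it overlaps exons of the transcript 4930540M05Rik, and the Atm stretch is 181 bases at chr9:53536741-53536921 on the minus strand, cut to end before the farthest annotated start.
Msh6 upstream: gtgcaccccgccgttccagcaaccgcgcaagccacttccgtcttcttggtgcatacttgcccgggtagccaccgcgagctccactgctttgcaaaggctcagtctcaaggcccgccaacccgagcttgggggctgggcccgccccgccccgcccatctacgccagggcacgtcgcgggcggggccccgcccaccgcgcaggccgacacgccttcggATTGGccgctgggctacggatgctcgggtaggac
Msh6 site after the start: ctcccgacTTTCCCGCcagcggcg
Rad51c upstream: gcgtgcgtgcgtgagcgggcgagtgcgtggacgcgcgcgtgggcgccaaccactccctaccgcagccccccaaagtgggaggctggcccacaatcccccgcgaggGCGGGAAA
Rad52 upstream: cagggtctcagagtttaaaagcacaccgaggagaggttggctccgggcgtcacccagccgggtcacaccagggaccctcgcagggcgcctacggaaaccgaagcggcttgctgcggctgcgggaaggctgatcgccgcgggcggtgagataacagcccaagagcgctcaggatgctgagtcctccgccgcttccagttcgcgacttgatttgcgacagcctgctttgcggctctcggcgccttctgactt
Atm upstream: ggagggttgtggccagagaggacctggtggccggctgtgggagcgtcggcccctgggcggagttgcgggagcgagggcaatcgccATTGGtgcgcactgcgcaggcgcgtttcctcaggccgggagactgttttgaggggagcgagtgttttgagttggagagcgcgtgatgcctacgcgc

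An E2F-type site was found in the windows of 7 of the 30 members (23.3%), namely Bard1, Brca2, Chek2, Fancg, Msh3, Msh6 and Rad51c. Among the 10247 symbols with an entry that were tested across the 24 libraries, 4.46% held one. A CCAAT box stood in the windows of 20 of 30 members (66.7%), against 42.7% of those symbols. The cell cycle homology element (TTTGAA), searched on both strands as well, was present for Bard1 and Rad51b alone, 6.67% of the members against 14.5%. Each motif was counted without regard to the others. These are matches of letters within the windows and were not set against any binding data.

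Repair transcripts were most abundant in stem cells and least abundant in differentiated cells. The 38 members summed to 759 to 847 CPM in NRG1 and 814 to 847 CPM in PBS Lgr5high libraries. In Lgr5med libraries the sums were 635 to 697 CPM with NRG1 and 629 to 699 CPM with PBS, and in Lgr5low libraries 488 to 565 and 494 to 521 CPM. Lgr5neg libraries stood at 154 to 182 CPM with NRG1 and 138 to 161 CPM with PBS. No library of one population overlapped with those of the next, whereas NRG1 and PBS libraries overlapped within every population. The mean was highest in Lgr5high for all 38 members in NRG1 mice and for 33 in PBS mice, where Rad51d, Xrcc2, Fanca, Fancb and Fancf peaked in a later population. It was lowest in Lgr5neg for 37 and 38 members, with Fancg in NRG1 mice the exception.

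Levels differed widely among the members once divided by the length of all their annotated exons, merged. In Lgr5high cells Rad50, the long coiled-coil partner of MRE11, stood first at 25.8 CPM per kb in NRG1 and 22.95 CPM per kb in PBS mice. Chek2, an effector kinase, and Msh6, the mismatch sensor, followed, at 10.8 and 9.51 CPM per kb in NRG1 and at 9.22 and 15.9 CPM per kb in PBS mice. Fanca was last in both treatments, at 0.587 CPM per kb with NRG1 and 0.565 CPM per kb with PBS. In Lgr5neg cells Rad50 was again first at 5.92 and 5.64 CPM per kb, while Xrcc2 was last in NRG1 mice at 0.00981 and Rad54b last in PBS mice at 0.00905 CPM per kb. Both last places rest on 2 counts over 3 libraries. Rad51c had 3 counts in the NRG1 and Fancb 2 in the PBS Lgr5neg libraries, so the order at this end cannot be read.

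The largest change along the differentiation order lay between Lgr5low and Lgr5neg cells. In NRG1 mice 33 of 38 members were higher in Lgr5low cells and none was lower, and in PBS mice the count was also 33 and none (edgeR's quasi-likelihood test, adjusted p under 0.05 over all genes tested). Of all genes tested, 30.4% were higher and 26.6% lower in Lgr5low cells in NRG1 mice, and 30.6% and 25.3% in PBS mice. The median log2 difference of the members was 2.04 in NRG1 mice and 2.15 in PBS mice, against 0.11 for all genes in each. Expressed as a ratio of means, the Lgr5neg level had a median of 23.1% of the Lgr5low level in NRG1 mice and of 21.3% in PBS mice. It lay under 10% for 12 members in each treatment and under 50% for 30. The Lgr5neg libraries are also those with immune marker RNA. Mitochondrial ribosomal RNA took 49.5% to 62.4% of their counts, against 37.6% to 47.1% in the other libraries, and their TMM factors were 0.543 to 0.776, against 1.01 to 1.29. Secretory markers (8 genes) summed to 8172 to 15960 CPM in NRG1 and 8172 to 15410 CPM in PBS Lgr5low libraries, against 834 to 2652 CPM and 3151 to 4291 CPM in Lgr5neg libraries. The part of these 4 measures in the members' differences was not tested.

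**Figure D1:**
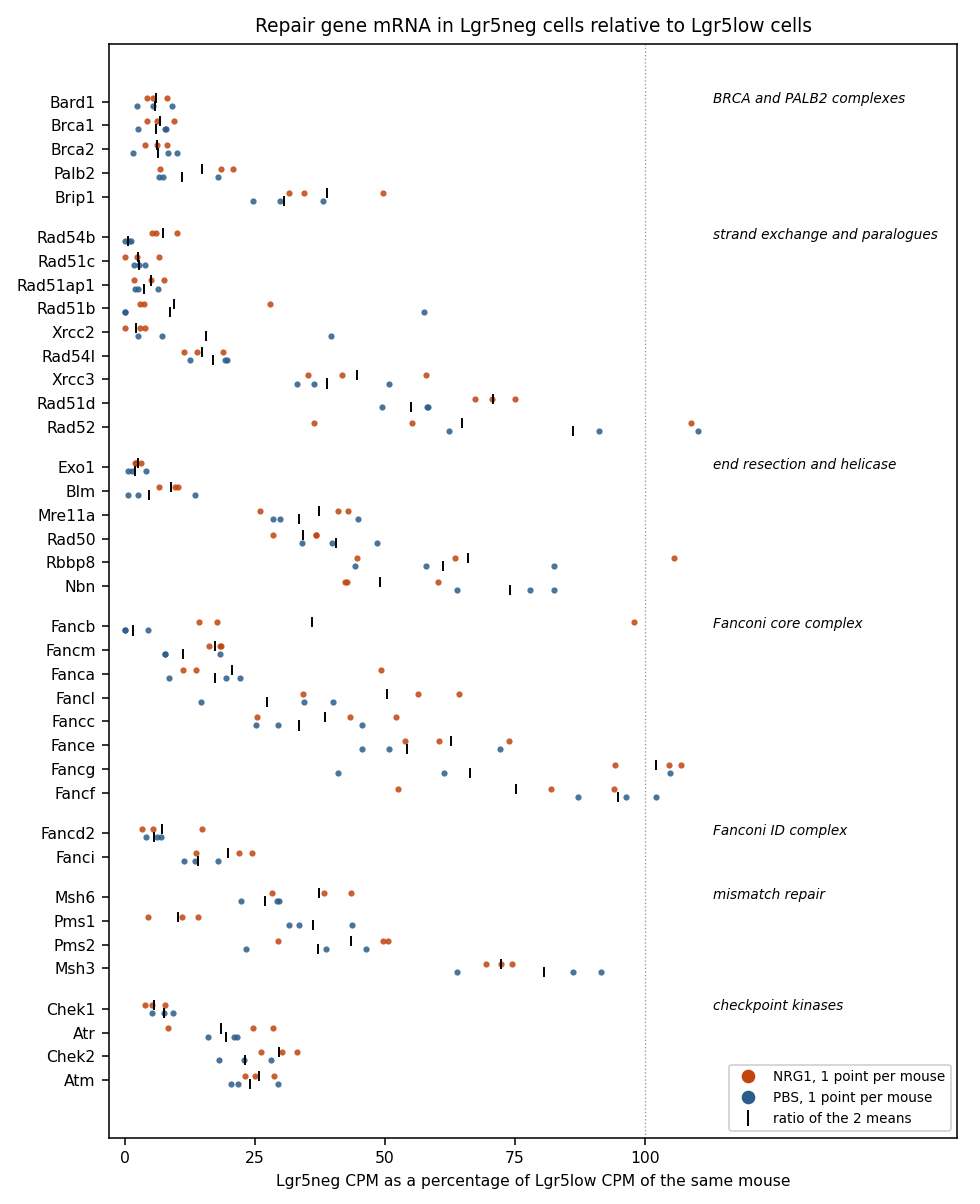
Level of each repair gene in Lgr5neg cells as a percentage of its Lgr5low level in the same mouse (points, 3 mice per treatment; NRG1 in orange above PBS in blue) with the ratio of the means as a black tick, grouped by role. Bard1, Brca1, Brca2, Exo1, Blm, Rad51b, Rad51c, Rad51ap1, Rad54b, Fancd2 and Chek1 sit under 10% by their means in both treatments. Xrcc2 does so with NRG1 only and Fancb with PBS only. Rad52, Fancf, Fancg and Msh3 sit at or above 64.8% in both treatments.

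The BRCA and PALB2 complexes lost the most as a group, with all 5 genes higher in Lgr5low cells and a median log2 difference of 3.81 in NRG1 and 3.93 in PBS mice. Brca1, which channels breaks into recombination, measured 20.73, 21.97 and 19.01 CPM in NRG1 Lgr5low libraries and 1.28, 2.06 and 0.810 CPM in NRG1 Lgr5neg libraries. In PBS mice it measured 23.5, 25.4 and 24.1 CPM in Lgr5low and 0.584, 1.94 and 1.90 CPM in Lgr5neg cells. All Lgr5low libraries exceeded all Lgr5neg libraries (log2 difference 3.81, SE 0.242, adjusted p = 1.27e-09 with NRG1, and 3.97, SE 0.247, adjusted p = 1.59e-10 with PBS, edgeR). Bard1, the RING partner of BRCA1, differed by 3.99 and 4.02, and Brca2 by 3.94 and 3.93, so that these 3 genes kept 5.79% to 6.72% of their Lgr5low level. Palb2, which bridges BRCA1 and BRCA2, kept 14.8% with NRG1 and 11.1% with PBS. Brip1, the FANCJ helicase that binds BRCA1, kept 38.8% and 30.6%.

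Strand exchange genes divided into members near the detection limit in differentiated cells and members that stayed measurable. Rad51c, a strand exchange factor, gave 143 counts over the 3 NRG1 Lgr5low libraries and 3 counts over the NRG1 Lgr5neg libraries, a ratio per effective library size of 40.3 (95% exact interval 13.5 to 198, counting error only). In PBS mice it gave 363 and 6 counts, a ratio of 35.6 (16.2 to 97.6). Rad54b, a DNA-dependent ATPase that remodels recombining DNA, measured 546 counts in PBS Lgr5low and 2 in PBS Lgr5neg libraries, a ratio of 161 (44.2 to 1328), whereas NRG1 Lgr5neg libraries held 4, 12 and 5 counts and the NRG1 ratio of means left 7.27%. Xrcc2 showed the opposite arrangement, with 1, 0 and 1 counts in NRG1 Lgr5neg libraries (ratio 49.8, interval 13.5 to 416) and 1, 12 and 2 in PBS Lgr5neg libraries (ratio 6.54, interval 3.86 to 12.0). A single PBS library, that of replicate 2, held most of the Xrcc2 counts there. Rad51b, which acts in the same step, had 7 counts in NRG1 and 3 in PBS Lgr5neg libraries, ratios of 11.7 (5.47 to 29.9) and 11.0 (3.57 to 54.8). Rad51ap1, which stimulates strand pairing, kept 4.94% with NRG1 and 3.75% with PBS, and the ATPase gene Rad54l kept 14.8% and 16.99%.

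Xrcc3 and Rad51d, which also act in strand exchange, were lost least among the called genes of this role. Xrcc3 kept 44.5% of its Lgr5low level in NRG1 and 38.9% in PBS mice. Rad51d kept 70.8% and 54.9%, and its log2 differences were 0.44 (SE 0.179, adjusted p = 0.0453) in NRG1 and 0.78 (SE 0.177, adjusted p = 0.000882) in PBS mice by edgeR. The NRG1 call of Rad51d ended without any 1 of the 6 libraries (adjusted p = 0.0655 to 0.122). Rad52, which anneals single strands, was the member of this role that did not pass in either treatment. It measured 10.1, 11.0 and 8.93 CPM in NRG1 Lgr5low and 3.67, 6.04 and 9.72 CPM in NRG1 Lgr5neg libraries, and 6.10, 5.29 and 7.26 CPM against 6.72, 4.81 and 4.52 CPM in PBS mice. The groups overlapped in both treatments (log2 difference 0.57, SE 0.248, adjusted p = 0.0594 with NRG1, and 0.13, SE 0.224, adjusted p = 0.639 with PBS). Without Lgr5neg NRG1 replicate 3, the highest of those libraries, its adjusted p was 0.00157, and with the mouse as a block 0.0452.

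End resection showed a wide gap between the exonuclease and the MRE11 complex. Exo1 measured 12.7, 13.3 and 10.0 CPM in NRG1 Lgr5low libraries, against 0.399, 0.257 and 0.221 CPM in NRG1 Lgr5neg libraries, and it kept 2.44% with NRG1 and 2.01% with PBS. In counts the ratio of Lgr5low to Lgr5neg was 42.4 (24.1 to 82.5) with NRG1 and 49.6 (26.0 to 109) with PBS. Blm, the helicase that dissolves double Holliday junctions, kept 8.89% and 4.71%. By contrast Mre11a kept 37.4% with NRG1 and 33.5% with PBS, Rad50 34.2% and 40.6%, and Nbn 49.0% and 74.1%. Nbn, the ATM-recruiting subunit, passed in NRG1 mice (log2 difference 0.98, SE 0.205, adjusted p = 0.000620) and not in PBS mice (0.35, SE 0.183, adjusted p = 0.114). Rbbp8 kept 65.9% and 61.1%, and its NRG1 call (log2 difference 0.55, adjusted p = 0.0181) ended without Lgr5low NRG1 replicate 2 (0.146) or Lgr5neg NRG1 replicate 2 (0.0776).

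In the Fanconi core complex 5 of 8 genes were higher in Lgr5low cells in NRG1 mice and 6 of 8 in PBS mice. Fancm, the translocase that anchors the complex to DNA, kept 17.3% with NRG1 and 11.2% with PBS, and Fanca kept 20.5% and 17.3%. Fancc kept 38.5% and 33.5%. Fancl, the ubiquitin ligase subunit, kept 50.3% and 27.4%. Fancb, a subunit of the ligase module encoded on the X chromosome, had 6, 8 and 27 counts in NRG1 Lgr5neg libraries, against 0, 2 and 0 in PBS Lgr5neg libraries. Its ratio of Lgr5low to Lgr5neg in PBS mice was 62.0 (16.96 to 515). In NRG1 mice the log2 difference was 1.42 (SE 0.453, adjusted p = 0.0130, edgeR), a call that ended without Lgr5neg NRG1 replicate 1 (0.0534) or replicate 2 (0.0613).

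Fancf and Fancg, which encode adaptor subunits of the core complex, did not pass in either treatment. Fancf measured 4.86, 3.83 and 5.66 CPM in NRG1 Lgr5low and 2.55, 3.60 and 4.64 CPM in NRG1 Lgr5neg libraries, and 6.82, 6.96 and 5.83 CPM against 6.57, 6.05 and 5.95 CPM in PBS mice. The groups overlapped (log2 difference 0.34, SE 0.298, adjusted p = 0.345 with NRG1, and -0.00, SE 0.213, adjusted p = 0.994 with PBS). Fancg kept 102% with NRG1 and 66.3% with PBS (log2 difference -0.08, SE 0.206, and 0.51, SE 0.258). Without Lgr5neg PBS replicate 1 its difference in PBS mice had an adjusted p of 0.00844. Fance kept 62.7% and 54.2% and was called in PBS mice (log2 difference 0.80, adjusted p = 0.00848), but not in NRG1 mice (0.61, adjusted p = 0.0657). The PBS call ended without Lgr5low PBS replicate 1 (0.0518), and the NRG1 difference passed without Lgr5neg NRG1 replicate 1 (0.0414) and with the mouse as a block (0.0252).

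The substrates of the core complex, Fancd2 and Fanci, were both higher in Lgr5low cells. Fancd2 measured 8.132, 12.96 and 10.96 CPM in NRG1 Lgr5low libraries, against 1.197, 0.707 and 0.368 CPM in NRG1 Lgr5neg libraries. In PBS mice the values were 13.1, 9.08 and 9.99 CPM in Lgr5low and 0.803, 0.621 and 0.397 CPM in Lgr5neg libraries. The groups did not overlap in either treatment, and Fancd2 kept 7.09% with NRG1 and 5.66% with PBS (log2 difference 3.78, SE 0.286, adjusted p = 8.75e-09, and 4.04, SE 0.282, adjusted p = 6.78e-10). Fanci, its partner, kept 19.8% and 14.04%.

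Mismatch repair genes were lost unevenly. Msh6 kept 37.3% with NRG1 and 26.9% with PBS, and Pms2, the endonuclease subunit, 43.4% and 37.1%. Msh3, which recognises insertion and deletion loops, kept 72.3% and 80.5% and did not pass (log2 difference 0.41, adjusted p = 0.0654 with NRG1, and 0.23, adjusted p = 0.281 with PBS). The NRG1 difference of Msh3 passed without Lgr5neg NRG1 replicate 1 (0.0141) and with the mouse as a block (0.0290). Pms1, a MutL homologue with a minor role in repair, measured 5.10, 6.92 and 5.01 CPM in NRG1 Lgr5low libraries and 0.559, 0.965 and 0.221 CPM in NRG1 Lgr5neg libraries. In PBS mice it measured 4.58, 5.15 and 5.54 CPM in Lgr5low and 1.53, 2.25 and 1.75 CPM in Lgr5neg libraries. It therefore kept 10.2% with NRG1 and 36.2% with PBS.

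All 4 checkpoint kinase genes stood higher in Lgr5low cells. Chek1, the kinase that restrains the cycle when forks stall, measured 10.2, 13.7 and 12.6 CPM in NRG1 Lgr5low libraries and 0.399, 0.707 and 0.958 CPM in NRG1 Lgr5neg libraries, and it kept 5.67% with NRG1 and 7.46% with PBS. Atr, the upstream kinase of Chek1, kept 18.4% and 19.5%. Atm, which responds to double-strand breaks, kept 25.7% and 23.98%, and Chek2, its effector, 29.6% and 23.1%. Atr, Atm and Chek2 stayed well above the detection limit in differentiated cells, with at least 205 counts per gene over the NRG1 and at least 164 over the PBS Lgr5neg libraries.

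Other genes of the same processes were set beside the members. Of 35 other recombination and Fanconi genes, 33 were tested, of which 20 were higher and 3 lower in Lgr5low cells in NRG1 mice, and 18 and 3 in PBS mice. Polq, the polymerase of microhomology end joining, differed by 4.84 and 4.14, and Fignl1, an AAA ATPase of recombination, by 4.09 and 4.76. Slx4, a nuclease scaffold, and Tonsl were lower in Lgr5low cells, by log2 differences of -0.95 and -0.87 in NRG1 mice and -0.65 and -0.70 in PBS mice. Non-homologous end joining, which needs no sister chromatid, had 4 of 11 genes higher and 3 lower in NRG1 mice and 3 higher and 1 lower in PBS mice. Nucleotide excision repair had 3 of 18 higher and 2 lower in NRG1 mice, and 7 and 2 in PBS mice. The shares of all genes tested were 30.4% higher and 26.6% lower in NRG1 mice, and 30.6% and 25.3% in PBS mice. S phase genes were higher for 27 of 29 tested in NRG1 and 28 of 29 in PBS mice, and G2/M genes for all 25 in each. The part of this difference in cycling genes in the members' difference was not tested.

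The earlier steps were small by comparison. Between Lgr5high and Lgr5med cells no member passed in NRG1 mice, where 3.11% of all genes tested were called in either direction, and 10 members had an unadjusted p under 0.05 (DESeq2 called 3). In PBS mice Msh6 alone was called higher in Lgr5high, against 2.44% of all genes called higher. The medians of the members were 0.26 in NRG1 and 0.28 in PBS mice, with 36 and 34 of 38 above 0, and those of all genes tested were -0.02 and 0.00. With the mouse as a block, Bard1 and Exo1 passed in NRG1 mice, and Msh6, Pms1, Atr and Rbbp8 in PBS mice. Msh6 measured 68.1, 73.4 and 65.7 CPM in PBS Lgr5high and 52.4, 49.2 and 49.5 CPM in PBS Lgr5med libraries (log2 difference 0.45, SE 0.138, adjusted p = 0.0449). The groups did not overlap, yet the call ended without any 1 of the 6 libraries (0.0649 to 0.176) and without mitochondrial ribosomal RNA (0.0523). Brca2 passed without Lgr5med PBS replicate 1 (0.0443).

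Between Lgr5med and Lgr5low cells no member passed in NRG1 mice, where 4.72% of all genes were called, 13 members had an unadjusted p under 0.05 and DESeq2 called 2. Rad50, Exo1 and Msh6 passed in PBS mice, where 2.00% of all genes were called higher in Lgr5med. With the mouse as a block Brca2 and Fanci passed in NRG1 mice, and Fanci and Pms2 were added in PBS mice. Msh6 measured 27.0, 34.8 and 34.3 CPM in PBS Lgr5low libraries, all below the Lgr5med values above (log2 difference 0.66, SE 0.140, adjusted p = 0.00608). It was not called in the 15-week-old mice alone (0.0548). Exo1 measured 21.7, 18.3 and 16.8 CPM in PBS Lgr5med and 10.6, 11.7 and 12.0 CPM in PBS Lgr5low libraries (0.73, SE 0.186, adjusted p = 0.0184). Its call ended without Lgr5med PBS replicate 1 (0.128), Lgr5low PBS replicate 1 (0.0705) or Lgr5low PBS replicate 3 (0.0505). Rad50 differed by 0.45 (SE 0.135, adjusted p = 0.0485), a call that ended without any 1 of the 6 libraries (0.0676 to 0.204). Fanci passed without Lgr5med PBS replicate 3 (0.0376) or Lgr5low PBS replicate 2 (0.0408).

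NRG1 moved few of the repair genes. In Lgr5high cells Rad52 and Fancd2 rose and Msh6 fell, 3 of 38 members (7.89%) against 7.33% of all genes tested. In Lgr5med cells Rad52 and Atm rose and Rad51c fell, again 7.89%, against 9.55% of all genes. None passed in Lgr5low cells (0.443% of all genes, 6 members with an unadjusted p under 0.05, DESeq2 0) or among the 31 members tested in Lgr5neg cells (0.328% of all genes, 3 with an unadjusted p under 0.05, DESeq2 0). Rad51b, Rad51c, Xrcc2, Rad51ap1, Rad54b, Exo1 and Fancb fell to the low-count filter in Lgr5neg cells and were not tested there. Outside mitochondrial ribosomal RNA, NRG1 Lgr5low replicates 1 and 3 held 6192378 and 7279306 counts and replicate 2 held 11398116. PBS Lgr5low libraries held 11152377 to 12349560. The part of this depth difference in the lack of calls was not tested. In a fit with a replicate block, 573 genes passed in Lgr5low and 839 in Lgr5neg cells, with no member among them. The members' shares in Lgr5high and Lgr5med cells were near the background. Their median log2 change was 0.04 in Lgr5high and 0.03 in Lgr5med cells, against 0.01 for all genes in each.

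**Figure D2:**
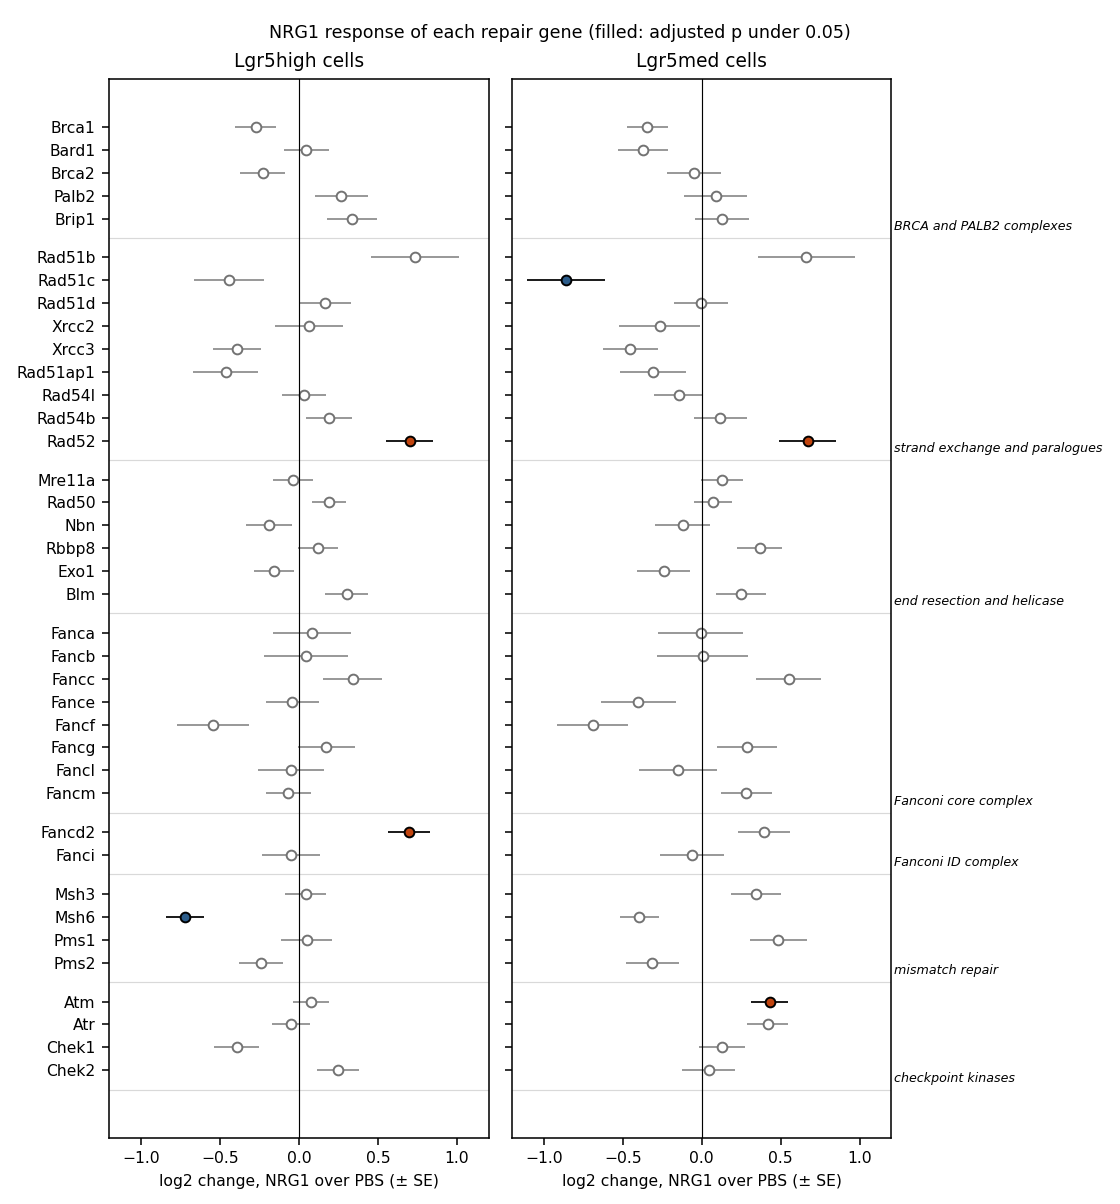
Log2 change with NRG1 over PBS of each of the 38 repair genes (point, with its SE as a bar) in Lgr5high and Lgr5med cells, 3 mice per treatment. Filled points mark the genes that passed at an adjusted p under 0.05: Rad52, Fancd2 and Msh6 in Lgr5high cells, and Rad51c, Rad52 and Atm in Lgr5med cells.

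Rad52, at chr6:119902698-119922828, rose in both populations. In Lgr5high cells it measured 17.77, 18.44 and 18.97 CPM with NRG1 and 13.1, 9.67 and 11.8 CPM with PBS. In Lgr5med cells it measured 13.6, 14.1 and 11.1 CPM with NRG1 and 9.65, 7.30 and 7.82 CPM with PBS. Every NRG1 library stood above every PBS library of its population, and the log2 changes were 0.70 (SE 0.151, adjusted p = 0.0101) and 0.67 (SE 0.181, adjusted p = 0.0329) by edgeR. The same arrangement was seen in Lgr5low cells of these mice, at 10.1, 11.0 and 8.93 CPM with NRG1 and 6.10, 5.29 and 7.26 CPM with PBS, where the change of 0.73 (SE 0.208) had an adjusted p of 0.159. In Lgr5neg cells the libraries overlapped. The Lgr5high call ended without PBS replicate 2 (0.0535), and the Lgr5med call without NRG1 replicate 1 (0.0737) or 2 (0.131) or PBS replicate 2 (0.149) or 3 (0.134).

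The other strand exchange genes did not move together. Rad51c, at chr11:87376645-87404954, measured 2.99, 3.69 and 3.75 CPM in NRG1 and 6.87, 4.64 and 7.72 CPM in PBS Lgr5med libraries. The groups did not overlap, and the level was 1.84-fold lower with NRG1 (log2 change -0.86, SE 0.247, adjusted p = 0.0420). This call ended without NRG1 replicate 1 (0.101), 2 (0.110) or 3 (0.0585) and without PBS replicate 1 (0.0981) or 3 (0.189). Rad51c also lay lower in every NRG1 than in every PBS library of Lgr5high (log2 change -0.44, adjusted p = 0.250) and Lgr5low cells (-0.88, adjusted p = 0.176), neither of which passed. Xrcc3 had changes of -0.39, -0.45 and -0.43 in Lgr5high, Lgr5med and Lgr5low cells, with no overlap between treatments in any of them and adjusted p-values of 0.124, 0.121 and 0.352. Rad51b had changes of 0.73, 0.66 and 1.19 in the same order, also with no overlap and with adjusted p-values of 0.121, 0.194 and 0.319. The libraries of these populations come from the same mice, so the repeats across populations are not independent. The share of all genes with no overlap between treatments was not counted, for these genes or for those below.

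Fancd2, at chr6:113531682-113597017, rose in Lgr5high cells. It measured 26.46, 22.98 and 25.73 CPM with NRG1 and 15.28, 14.83 and 16.99 CPM with PBS, with no overlap (log2 change 0.70, SE 0.132, adjusted p = 0.00474). In Lgr5med cells it measured 15.5, 15.4 and 17.5 CPM with NRG1 and 14.7, 12.0 and 10.6 CPM with PBS (0.39, SE 0.165, adjusted p = 0.151), and in Lgr5low cells the libraries overlapped (0.04). Its partner Fanci had changes of -0.05 and -0.06 in Lgr5high and Lgr5med cells. No gene of the core complex passed in any population where it was tested, and Fancb was not tested in Lgr5neg cells. Fancf lay lower in every NRG1 than in every PBS library of all 4 populations, with changes of -0.55, -0.69, -0.43 and -0.78 along the differentiation order and adjusted p-values of 0.0683 to 0.473. Fancf was singled out after its values were seen.

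**Figure D3:**
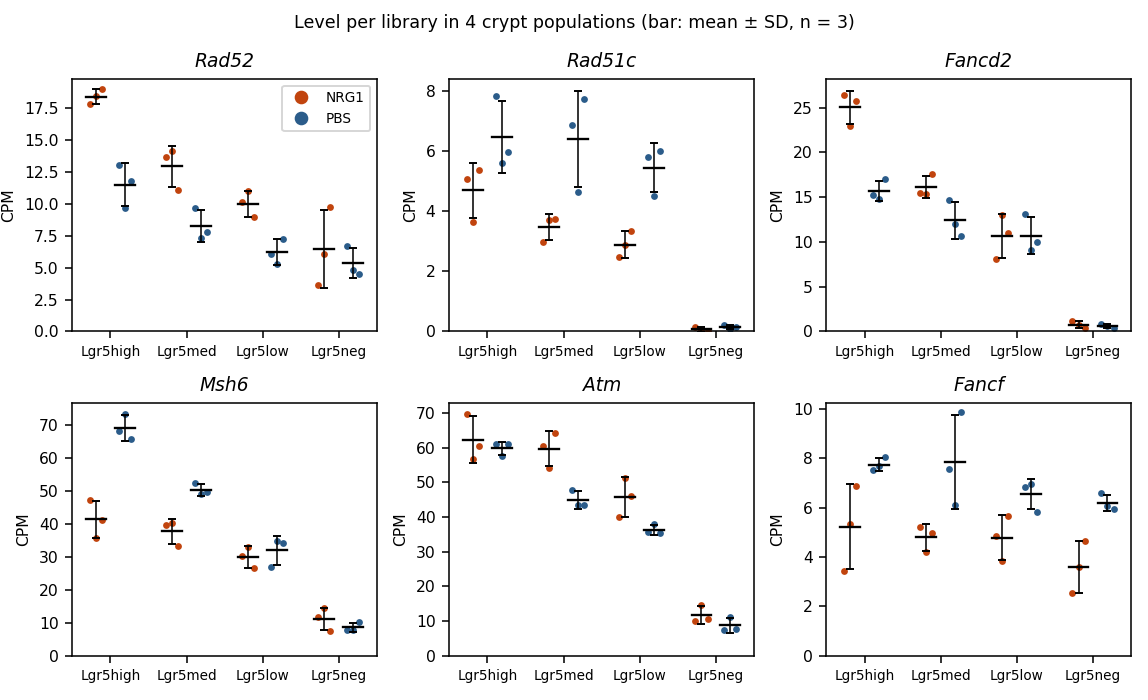
CPM of 6 repair genes in each of the 24 libraries (points; NRG1 in orange left of PBS in blue, 3 mice each) by population, with mean and SD in black. Rad52 lies higher and Fancf lower in the NRG1 libraries of Lgr5high, Lgr5med and Lgr5low cells with no overlap, and Msh6 separates by treatment in Lgr5high and Lgr5med cells but not in Lgr5low or Lgr5neg cells.

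Msh6, at chr17:87975062-87990892, fell in Lgr5high cells to 47.1, 35.7 and 41.2 CPM with NRG1, against 68.1, 73.4 and 65.7 CPM with PBS. The groups were far apart, and the level was 1.67-fold lower with NRG1 (log2 change -0.72, SE 0.120, adjusted p = 0.00196, edgeR). In Lgr5med cells it measured 39.7, 40.3 and 33.4 CPM with NRG1 and 52.4, 49.2 and 49.5 CPM with PBS, without overlap but just short of the threshold (-0.39, SE 0.121, adjusted p = 0.0555). In Lgr5low cells it overlapped (-0.06), and in Lgr5neg cells it averaged 11.14 ± 3.43 CPM with NRG1 and 8.598 ± 1.35 CPM with PBS (SD, n = 3 each; log2 change 0.37). The other mismatch repair genes did not pass: Msh3 had changes of 0.04 and 0.35, Pms2 of -0.24 and -0.31 and Pms1 of 0.05 and 0.48 in Lgr5high and Lgr5med cells. In Lgr5neg cells Pms1 measured 0.559, 0.965 and 0.221 CPM with NRG1 and 1.53, 2.25 and 1.75 CPM with PBS, without overlap (-1.64, SE 0.600, adjusted p = 0.333).

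Atm, at chr9:53439149-53536740, rose in Lgr5med cells. It measured 60.4, 54.3 and 64.4 CPM with NRG1 and 47.8, 43.6 and 43.3 CPM with PBS (log2 change 0.43, SE 0.119, adjusted p = 0.0362). No library overlapped, but the call ended without NRG1 replicate 1 (0.0701), 2 (0.0569) or 3 (0.0708) and without PBS replicate 2 (0.149) or 3 (0.158). Atr had a change of 0.42 in Lgr5med cells (adjusted p = 0.0555) and of -0.05 in Lgr5high cells. Chek1 had changes of -0.39 and 0.13 and Chek2 of 0.25 and 0.04 in Lgr5high and Lgr5med cells. In the BRCA and PALB2 complexes and in end resection no gene passed in any population where it was tested. Exo1 was not tested in Lgr5neg cells. Brca1 had changes of -0.27 and -0.34 and Brca2 of -0.23 and -0.05, while Rad50 had 0.19 and 0.07.

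The difference of the NRG1 response between populations was tested directly, as an interaction over all 24 libraries. No member passed for Lgr5high against Lgr5med (0 of 15045 genes called, 0% of all), against Lgr5low (0%) or against Lgr5neg cells (0.0532% of all genes). Unadjusted p-values under 0.05 were found for 0, 3 and 7 members, and DESeq2 called 0, 0 and 2. The lowest adjusted p-values for Lgr5high minus Lgr5neg cells were those of Fancb (difference -4.08, SE 0.887, adjusted p = 0.0702), Rad54b (-2.96, SE 0.663, adjusted p = 0.0811) and Msh6 (-1.10, SE 0.245, adjusted p = 0.0811). The first and second rest on the 2 counts each that these genes had in PBS Lgr5neg libraries. With the mouse as a block 3 members passed: Msh6 (0.0236), Fancb (0.0384) and Pms1 (difference 1.69, 0.0498). Msh6 also passed without NRG1 replicate 3 (0.0152). For Msh6 the NRG1 response in Lgr5high minus that in Lgr5low cells was -0.66 (SE 0.232, unadjusted p = 0.00795, adjusted p = 1.00).

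The cell cycle lists moved with NRG1 in the same libraries far more than the repair genes. In Lgr5high cells 17 of 29 S phase genes fell and none rose, with a median of -0.61, and 24 of 25 G2/M genes rose, with a median of 0.84. In Lgr5med cells 10 S phase genes fell and 12 G2/M genes rose, with medians of -0.46 and 0.46. Of 19 checkpoint and damage signalling genes, 4 fell in Lgr5high cells (21.1%, against 7.33% of all genes) and 0 rose. Their median there was -0.04, with 8 above 0 and 11 below. In Lgr5med cells 2 fell (10.5%, against 9.55%) and 0 rose, with a median of -0.05. The largest falls called were in genes that protect replication forks. Timeless and Tipin fell by 0.75 each in Lgr5high cells and Clspn by 0.62, and in Lgr5med cells Clspn fell by 0.81 and Timeless by 0.70. Rmi2, which stabilises the BLM complex, fell by 1.38 in Lgr5high and by 0.87 in Lgr5med cells, and Polq rose by 0.56 in Lgr5high cells. No other gene of the 33 recombination and Fanconi genes tested passed in Lgr5high or Lgr5med cells. No nucleotide excision repair gene passed there (1 and 2 with an unadjusted p under 0.05, DESeq2 0), and of the end joining genes BC029214 alone did, with a change of -1.02 in Lgr5med cells. Some cell type markers moved as well. In Lgr5med cells 7 of 8 enterocyte markers lay below 0 (median -0.58), and Fabp1 and Alpi passed (25%, against 9.55% of all genes). There 7 of 8 stem cell markers lay above 0 (median 0.42), and Rgmb passed (12.5%). Secretory markers had 7 of 8 below 0 (median -0.28), and none passed. In Lgr5high cells all 7 secretory markers tested lay below 0 (median -0.98). The Paneth cell gene Defa17 passed (14.3%, against 7.33% of all genes). Stem cell markers there had 5 of 8 above 0 (median 0.03) and enterocyte markers 5 of 8 below 0 (median -0.30), and none passed. The part of the shifts in cell cycle genes and cell type markers in the changes of Msh6, Fancd2, Rad52, Rad51c and Atm was not tested.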

How the data were processed

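The deposited table holds raw counts of reads per gene symbol, which the authors had not normalised. The submitters' processing notes name STAR, featureCounts and GRCm38. Versions, annotation and strand setting are not given in the sources used here. Per the labels' protocols, 15 ng of RNA entered a NuGEN Ovation kit, which amplifies RNA, so counting intervals and floors cover counting error only. Tests used edgeR 4.0.16 in R 4.3.3 (robust quasi-likelihood test, TMM scaling, edgeR's low-count filter with minimum count 10 and minimum total 15, Benjamini-Hochberg adjustment over all genes tested). Genes were called at an adjusted p under 0.05, and adjusted p-values come from this test unless DESeq2 1.42.0 is named. NRG1 was compared with PBS on the 6 libraries of each population, populations within a treatment on 12 libraries, and interactions on 24. The method was also run on simulated counts with the same spread for every gene and no effect of the mouse. That setting is simpler than these data. No columns were identical. The mouse was taken as a block in an alternative for populations and interactions, because the labels show that each mouse gave 1 library per population. Between NRG1 and PBS mice, equal replicate numbers mark equal age. Deviations of same-numbered libraries from their group means correlated at 0.102 to 0.18 in Lgr5low and Lgr5neg cells, where every pair was above 0.1. In Lgr5high and Lgr5med cells they correlated at 0.0695 to 0.227. The main tests of NRG1 against PBS used no block in any population. The replicate number was a block only in an alternative, which was run in every population. Alternatives were DESeq2, RLE size factors, no filter, no mitochondrial ribosomal RNA, 15-week-old mice only, 1 model for 24 libraries, and each replicate left out. Members and gene lists were chosen with earlier results of these data known. Members called are all named, with full statistics for at most 12, and at most 3 genes each way of other lists. Gene coordinates and exon lengths are from GENCODE vM21 (GRCm38) and promoters from RefSeq.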

Additional observations from a re-analysis of the deposited data

How the results depend on the processing

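Of 33 members called between Lgr5low and Lgr5neg cells, 30 in NRG1 and 31 in PBS mice kept the call in every alternative run, with counts of 30 to 33 and 32 to 34 when 1 library was left out. In NRG1 mice the count was 32 by DESeq2 and with RLE factors and 34 without the filter. It was 36 there with the mouse as a block and in the 24-library model. In PBS mice the count was 33 in each of these alternatives. The count of 3 for NRG1 in Lgr5high cells was 2 to 3 with 1 library left out and 1 with all 24 libraries in 1 model, where Fancd2 (0.052) and Rad52 (0.0867) were lost. Msh6 stayed called there in all 13 alternatives. In Lgr5med cells the count of 3 was 5 by DESeq2, 6 with a replicate block (Fancf, Atr and Msh6 added), 0 in 15-week-old mice, 1 in the 24-library model and 0 to 2 with 1 library left out. In Lgr5neg cells the count of 0 was 1 without the filter and 3 in the 24-library model, which included Pms1 (0.00925). For Lgr5high against Lgr5med in PBS mice the count of 1 was 7 by DESeq2, 2 with RLE factors, 3 without the filter, 4 with the replicate block, 0 without mitochondrial ribosomal RNA, in 15-week-old mice and in the 24-library model, and 0 to 1 with 1 library left out. For Lgr5med against Lgr5low in PBS mice the count of 3 was 6, 7 and 5 by DESeq2, without the filter and with the block, 0 in 15-week-old mice and 1 to 3 with 1 library left out. In NRG1 mice both steps went from 0 to 3 and 2 by DESeq2, 1 and 1 without the filter and 2 and 2 with the block. The interaction of Lgr5high with Lgr5neg gave 2, 3 and 3 in that order, and 0 to 1 with 1 replicate left out. Over all genes, NRG1 calls in Lgr5high cells numbered 976 (480 in the 24-library model, 491 to 1186 with 1 library left out), in Lgr5med cells 1279 (2333 with the block, 425 in 15-week-old mice, 422 to 1118), in Lgr5low cells 59 (573 with the block, 1 to 72) and in Lgr5neg cells 39 (839 with the block, 0 to 90). The block changed no other member call in a comparison of NRG1 with PBS. The causes were not tested. With 1 to 3 counts in a group, as for Rad54b, Fancb, Xrcc2, Rad51b and Rad51c in Lgr5neg cells, depth sets how far a ratio can be read.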
